A study of Rattus norvegicus with 12 samples.

Results

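The small heat shock genes Hspb1, Hspb6, Hspb8 and Cryab and the Bag cochaperone genes Bag1 to Bag6 were followed in 2 lines of the rat insulinoma CRI-G1. Members were all probe sets whose only gene symbol was 1 of these 10 names, which gave 10 of 14218 genes and 12 of 31099 probe sets. Hspb8 and Bag6 had 2 probe sets each, and no member fell in a probe set with several symbols. The family was chosen with the difference between the lines in view, so that difference is a description. No p-value is given for a member, and calls of members by the fit over all probe sets are counted without support being drawn from them. CRI-G1-RS, the rotenone-susceptible line, is a single subclone that arose from the original clone during prolonged culture. CRI-G1-RR, the rotenone-resistant line, is that original clone. Both lines were grown untreated in high glucose DMEM with 10% FBS, and 6 passages of each (12 arrays in all) were profiled on Affymetrix Rat 230 2.0 arrays. Each line is represented by its own culture history only, so subclone and rotenone susceptibility cannot be told apart.

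Small heat shock proteins bind unfolding proteins without using ATP and hold them until a chaperone of the Hsp70 class takes over. Most Bag proteins dock on Hsp70 through a shared domain, release its nucleotide and so decide when a client leaves. Hspb8 and Bag3 form a complex that hands damaged proteins to Hsp70 and to autophagy, a route called chaperone-assisted selective autophagy and studied mostly in muscle and neurons. Hspb1, Hspb8, Cryab and Bag3 are textbook targets of heat shock factor 1 (Hsf1), which binds inverted repeats of GAA and TTC.

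Values below are signals, the linear intensities of the deposited table, in arbitrary units, with mean ± SD over 6 arrays a line. A log2 fold change is CRI-G1-RS minus CRI-G1-RR on the scale of log2(signal + 16) after quantile normalization. Its standard error (SE) and 95% interval come from limma fitted over all 31099 probe sets, and a gene is called at an adjusted p under 0.05. Adding 16 understates the change of dim probe sets. Signals of different probe sets were not compared, because each probe set has its own sensitivity.

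The arrays had been scaled to a trimmed mean of 250.07 each. Array pairs within CRI-G1-RS correlated at 0.979 to 0.987, pairs within CRI-G1-RR at 0.980 to 0.987, and pairs across the lines at 0.952 to 0.965. Islet markers were bright, with summed signals of 27832 to 32205 over 9 genes in CRI-G1-RS and 24952 to 28399 in CRI-G1-RR. Of these 9, 5 were called higher in CRI-G1-RS (Ins2, Pcsk2, Neurod1, Nkx2-2 and Chga, with log2 fold changes of 1.30, 0.97, 0.90, 0.33 and 0.25) and Pax6 lower, with -0.46. Their part in the results was not tested. Among the measured markers of fibroblasts, muscle, acinar cells, macrophages and endothelium, only Pdgfra was called. It averaged 153 in CRI-G1-RS and 83.4 in CRI-G1-RR. The 6 fibroblast markers, Pdgfra among them, summed to 307 to 390.2 in CRI-G1-RS and to 230.5 to 299.5 in CRI-G1-RR. The other 5 were not called. Of these, Col1a1 (54.4 in CRI-G1-RS, 55.4 in CRI-G1-RR) and Col1a2 (20.2 and 26.7) averaged lower in CRI-G1-RS. Col3a1, Dcn and Lum averaged slightly higher there. The sums therefore do not show a rise of fibroblast markers as a set, and their part was not tested either. CRI-G1-RR replicates 1 to 3 stood apart from replicates 4 to 6 at some genes, Hspb8 among them. Member calls that changed with the set used are given with that set. For the pathway lists, values of single genes are not given by set.

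The promoter windows of 4 members share the 8-base word GAAGTTTC, a match to the heat shock motif GAANNTTC. The windows of 3 of these genes are shown because the genes differ in direction between the lines. Hspb8 was higher in CRI-G1-RS, Bag3 was lower, and the lines overlapped at Hspb6. Sequences are from RefSeq on GRCr8, from 250 bases before to 50 bases after the start, 5′ to 3′ on the strand of the gene. Capitals mark matches to GAANNTTC or TTCNNGAA, the inverted repeats searched as heat shock motifs. Hspb8 lies at chr12:45837058-45837357, Bag3 at chr1:192533210-192533509 and Hspb6 at chr1:94934122-94934421, each on the plus strand.
Hspb8: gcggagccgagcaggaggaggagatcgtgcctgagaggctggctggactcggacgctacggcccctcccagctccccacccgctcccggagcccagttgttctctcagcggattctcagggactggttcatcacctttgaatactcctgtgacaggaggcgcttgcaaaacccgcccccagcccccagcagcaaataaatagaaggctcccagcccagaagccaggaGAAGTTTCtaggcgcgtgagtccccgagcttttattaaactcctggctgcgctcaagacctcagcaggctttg
Bag3: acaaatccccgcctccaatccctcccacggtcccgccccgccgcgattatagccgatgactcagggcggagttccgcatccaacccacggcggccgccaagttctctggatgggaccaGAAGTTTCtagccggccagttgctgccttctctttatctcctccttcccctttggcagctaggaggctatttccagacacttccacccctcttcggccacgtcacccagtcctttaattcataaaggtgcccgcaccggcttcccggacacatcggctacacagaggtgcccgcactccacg
Hspb6: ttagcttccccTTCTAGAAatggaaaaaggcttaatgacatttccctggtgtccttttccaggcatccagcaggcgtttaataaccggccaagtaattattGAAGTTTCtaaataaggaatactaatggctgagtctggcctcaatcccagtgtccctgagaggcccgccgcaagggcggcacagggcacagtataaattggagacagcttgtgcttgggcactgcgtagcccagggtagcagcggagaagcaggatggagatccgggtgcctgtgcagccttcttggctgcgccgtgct

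The shared word began 23 bases before the start in Hspb8, 132 bases before it in Bag3 and 149 bases before it in Hspb6. In Hspb1, at chr12:26432252-26432551 on the minus strand, it began 129 bases before the start, and a further match, GAACCTTC, began 109 bases before it. Hspb6 also held TTCTAGAA 239 bases before its start. The 4 genes were among 8 members with a promoter in the table. Over all 33469 promoters of the same length, GAAGTTTC on either strand occurred in 1.39%, GAANNTTC in 8.59%, TTCNNGAA in 8.77% and either motif in 15.9%. Both motifs equal their own reverse complement, so 1 search covers both strands, and GAAGTTTC is a case of GAANNTTC. GAAGTTTC was picked after it was seen in the windows of these 4 genes, so its share of 1.39% does not measure enrichment. Bag1, Bag2, Bag5 and Bag6 held neither motif in these windows. The antioxidant response motif TGACNNNGC, searched on both strands, matched only in Bag3, as GCCACGTCA read on the opposite strand and beginning 37 bases before the start. It occurred in 12.1% of all promoters. These matches describe letters in a window and are not evidence of binding.

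**Figure D1:**
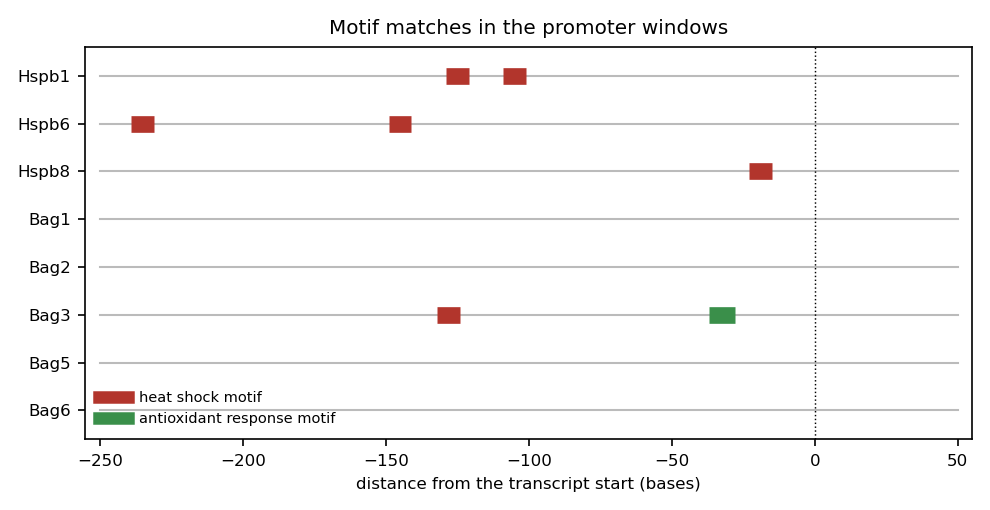
Position of each motif match along the promoter window, in bases from the transcript start (x axis), for the 8 genes with a window (y axis, Bag6 with both of its windows on 1 line). Red blocks are heat shock motif matches and the green block is the antioxidant response match, which lie in Hspb1, Hspb6, Hspb8 and Bag3.

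Across the family the lines differed in both directions. By the probe set with the highest mean signal, 4 of 10 genes were called higher in CRI-G1-RS (Hspb8, Bag2, Bag5, Bag6), against 21% of all 14218 genes, and 2 were called lower (Bag1, Bag3), against 18.3%. The arrays of the lines did not overlap at 5 of 10 genes, against 27.2% of all genes. By probe set, 7 of 12 were called, against 31.7% of all probe sets, and 6 of 12 did not overlap, against 20.3%. The median log2 fold change was 0.20 over the members and 0.02 over all genes. Because the family was chosen on this contrast, nothing is read from these shares. In RNA of whole cultures, fewer cells that express a gene and less RNA per cell cannot be told apart.

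**Figure D2:**
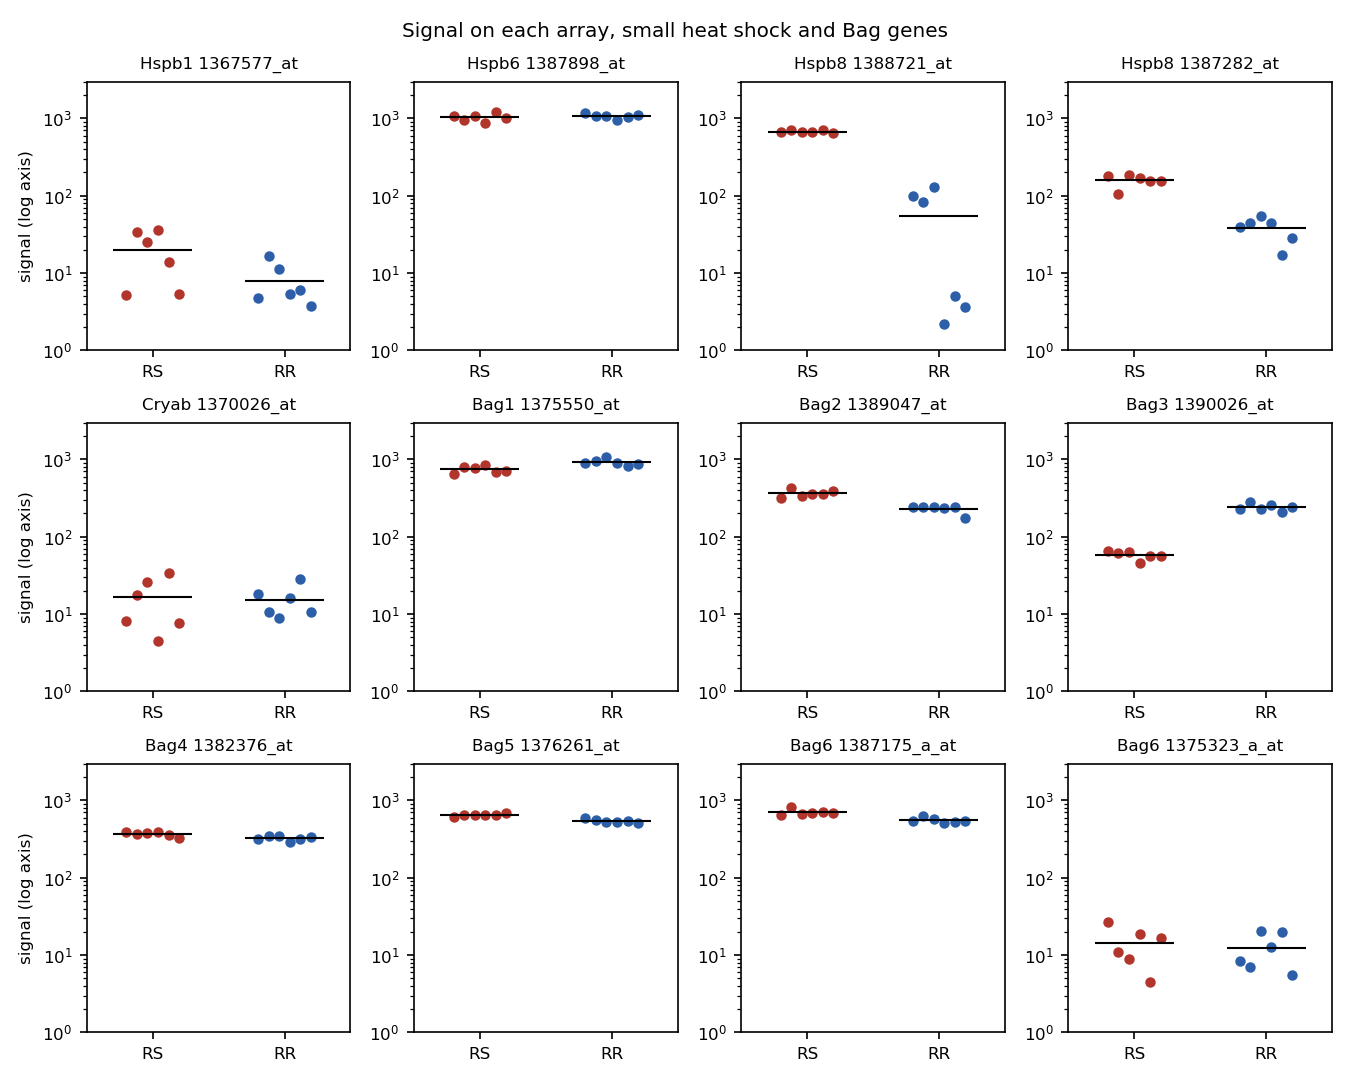
Signal (log y axis, arbitrary units) of all 12 probe sets on each array, with 6 CRI-G1-RS arrays in red left of 6 CRI-G1-RR arrays in blue, and the line mean as a bar. Hspb8 and Bag3 separate the lines most, in opposite directions, and at the first Hspb8 probe set the CRI-G1-RR arrays split into 3 between 83.2 and 129.7 and 3 between 2.18 and 5.00.

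Hspb8, also called Hsp22, is the small heat shock protein that pairs with Bag3. At its brighter probe set, CRI-G1-RS replicates 1 to 6 had signals of 672, 701, 662, 663, 708 and 640.1. CRI-G1-RR replicates 1 to 6 had 100.5, 83.2, 129.7, 2.18, 5.00 and 3.65. Every CRI-G1-RS array lay above every CRI-G1-RR array, and within CRI-G1-RR replicates 1 to 3 lay far above replicates 4 to 6. The mean was 674 ± 25.7 in CRI-G1-RS and 54.0 ± 57.2 in CRI-G1-RR, a ratio of 12.5. The log2 fold change was 3.83 (SE 0.52, 95% interval 2.71 to 4.96). That fit treats the 6 CRI-G1-RR arrays as replicates of the same level, which they were not. Its interval therefore describes neither replicates 1 to 3 nor replicates 4 to 6. The log2 fold change was 2.54 against CRI-G1-RR replicates 1 to 3 alone. Against replicates 4 to 6 alone it was 5.12, but their signals lie far below the added 16, so the pseudocount largely sets that value.

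The spread between passages differed between the lines at the brighter probe set and much less at the dimmer one. At the brighter probe set the SD of the log2 values was 0.06 in CRI-G1-RS, which is higher than in only 7.4% of 500 probe sets of similar mean signal. In CRI-G1-RR the SD was 1.42, above all 500. At the dimmer probe set the SD was 0.28 in CRI-G1-RS, above 87.8% of 500, and 0.36 in CRI-G1-RR, above 78% of 500, so the evenness of CRI-G1-RS was not seen there. By the log2 difference between replicates 1 to 3 and 4 to 6 of CRI-G1-RR, which was 2.56, the brighter probe set ranked number 3 of 31099 in size. That ordering was noticed in these values, and the labels give no difference between those passages. Those 2 sets of CRI-G1-RR arrays did not overlap at 14.5% of all probe sets, and at 2 of the 12 member probe sets, of Hspb8 and Bag6. At Bag6 the log2 difference between the sets was only 0.15. With 3 arrays a set, some probe sets separate by order alone, so nothing is read from these counts.

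The dimmer Hspb8 probe set gave the same direction and a smaller difference. Its signals ran from 105 through a median of 163 to 186 in CRI-G1-RS, against 17.0, 41.8 and 55.0 in CRI-G1-RR. The mean was 158 ± 28.8 in CRI-G1-RS and 38.0 ± 13.4 in CRI-G1-RR, a ratio of 4.15, with a log2 fold change of 1.69 (SE 0.17, 95% interval 1.31 to 2.06). The lines did not overlap here either. CRI-G1-RR replicates 1 to 3 had 39.7, 44.0 and 55.0, and replicates 4 to 6 had 44.1, 17.0 and 28.5, so the 2 sets overlapped at this probe set. The probe sets read the same RNA and are not replicates of each other.

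Bag3, the cochaperone that links Hspb8 to Hsp70, changed in the other direction. CRI-G1-RS replicates 1 to 6 had signals of 65.8, 62.5, 62.6, 45.3, 56.5 and 55.6. CRI-G1-RR replicates 1 to 6 had 231, 280.3, 225, 254, 211 and 244. The highest CRI-G1-RS array was well below the lowest CRI-G1-RR array, and CRI-G1-RR showed no step between replicates 3 and 4. Means were 58.1 ± 7.37 in CRI-G1-RS and 241 ± 24.4 in CRI-G1-RR, which makes the CRI-G1-RR mean 4.15 times the CRI-G1-RS mean. The log2 fold change was -1.81 (SE 0.09, 95% interval -2.0 to -1.62). Against CRI-G1-RR replicates 4 to 6 alone and against replicates 1 to 3 alone it was also -1.81. The partners of this complex thus stood in opposite directions in the same RNA.

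**Figure D3:**
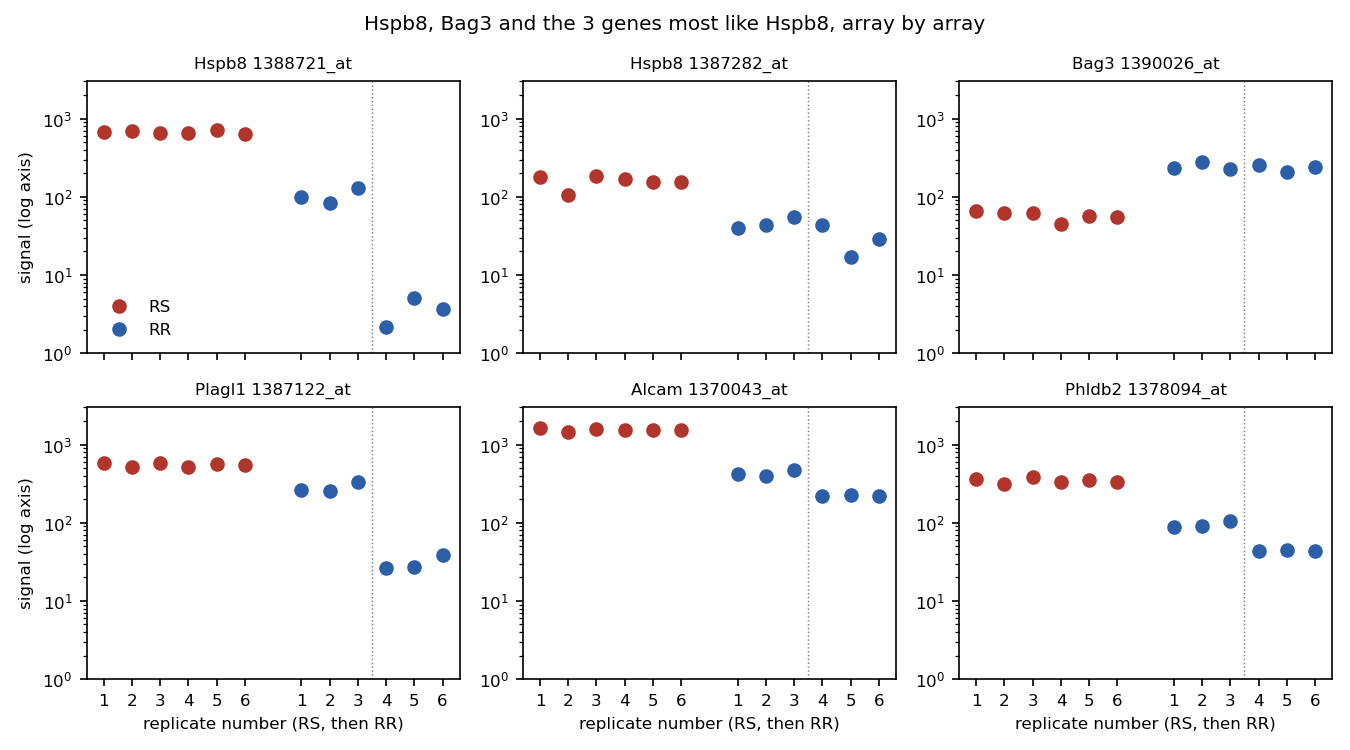
Signal (log y axis, arbitrary units) on each array for both Hspb8 probe sets, Bag3, and the 3 genes whose deviations were most like those of the brighter Hspb8 probe set. The x axis gives the replicate number, CRI-G1-RS (red) left of CRI-G1-RR (blue), and the dotted line separates CRI-G1-RR replicates 3 and 4, where the brighter Hspb8 probe set, Plagl1, Alcam and Phldb2 step down and the dimmer Hspb8 probe set and Bag3 show no such step.

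Within CRI-G1-RS, Hspb8 and Bag3 had a Pearson r of 0.10 over 6 arrays, and 0.47 with median centring. An exact permutation test did not pass the threshold of 0.05. Bag3 was dim in CRI-G1-RS, at a mean of 58.1, so the absence of a relation was not shown. In CRI-G1-RR the Hspb8 values fall into 2 clusters of 3 arrays, and no correlation is given.

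Plagl1, Alcam and Phldb2 followed Hspb8 most closely when the deviations of each array from its line mean were correlated over all 12 arrays, among 8683 genes whose mean signal reached 100. Plagl1, a zinc finger transcription factor, had an r of 0.99. Its signals were 513 to 582 in CRI-G1-RS, 258 to 331 in CRI-G1-RR replicates 1 to 3 and 26.2 to 38.2 in replicates 4 to 6. Alcam, a cell adhesion molecule, had an r of 0.99, with 1462 to 1627 in CRI-G1-RS, 397 to 472 in CRI-G1-RR replicates 1 to 3 and 218 to 229 in replicates 4 to 6. Phldb2, which encodes a phosphoinositide-binding protein of the cell cortex, had an r of 0.97, with 316 to 387 in CRI-G1-RS, 88.6 to 105.8 in CRI-G1-RR replicates 1 to 3 and 43.4 to 45.5 in replicates 4 to 6. The step between the sets of CRI-G1-RR arrays dominates the Hspb8 deviations and so selected these genes, and its presence in them is no separate finding. The likeness came from CRI-G1-RR, where r was 0.99, 1.00 and 0.99, while over CRI-G1-RS alone it was -0.16, -0.56 and -0.24 for Plagl1, Alcam and Phldb2. The points share arrays and scaling, and these correlations are a description.

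The genes most like Bag3 by the same measure were Natd1 (r = 0.91), Efr3b (r = 0.89) and Rimkla (r = 0.84). Their differences between the lines did not follow Bag3, with log2 fold changes of -0.02, 0.80 and 0.29. Hspb1 and Cryab were dim, so their correlations are given for completeness only. The genes most like Hspb1 were Mpc2 (r = 0.92), Capn2 (r = 0.90) and Ccdc9 (r = 0.89), and those most like Cryab were Cct2 (r = 0.88), Nalf1 (r = 0.80) and Serpinb6a (r = 0.80).

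The other small heat shock genes showed no call. Hspb1, known as Hsp27 (Hsp25 in rodents), guards actin filaments and is strongly induced by heat in many cells. It was dim, from 5.18 through a median of 19.5 to 35.9 in CRI-G1-RS, and 3.77, 5.70 and 16.6 in CRI-G1-RR. Means were 19.9 ± 13.8 in CRI-G1-RS and 7.97 ± 4.97 in CRI-G1-RR, with a log2 fold change of 0.52 (SE 0.23, 95% interval 0.02 to 1.02). The lines overlapped, and 2 CRI-G1-RS arrays lay below 10, among the CRI-G1-RR values.

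Cryab, or alpha B-crystallin, is a lens and muscle chaperone that binds desmin filaments. Its signals were 4.44, 12.8 and 34.4 (lowest, median, highest) in CRI-G1-RS, against 8.88, 13.3 and 28.0 in CRI-G1-RR. Means were 16.4 ± 11.9 in CRI-G1-RS and 15.4 ± 7.15 in CRI-G1-RR, and the log2 fold change was 0.00 (SE 0.23, 95% interval -0.50 to 0.50). The interval is wide at signals this low, so equal levels were not shown.

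Hspb6, or Hsp20, is best known from smooth and cardiac muscle, where its phosphorylated form relaxes the cell. It was bright in both lines. Signals were 863, 1040.5 and 1206 in CRI-G1-RS, against 964, 1071 and 1168 in CRI-G1-RR. Means were 1031 ± 118 in CRI-G1-RS and 1070.0 ± 68.8 in CRI-G1-RR, with a log2 fold change of -0.06 (SE 0.08, 95% interval -0.23 to 0.11). The lines thus overlapped at Hspb6, while at Hspb8, of the same family, they did not overlap at either probe set.

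Bag1, the first Bag protein described, binds Bcl2 and brings Hsp70 clients to the proteasome. Its signals were 648, 744 and 839.8 in CRI-G1-RS, against 816, 903 and 1076 in CRI-G1-RR. It averaged 744 ± 70.6 in CRI-G1-RS and 923 ± 87.9 in CRI-G1-RR, with a log2 fold change of -0.31 (SE 0.08, 95% interval -0.49 to -0.13). The lines overlapped, since the highest CRI-G1-RS array lay above the lowest CRI-G1-RR array. Against CRI-G1-RR replicates 4 to 6 alone the value was -0.22 and was not called, and against replicates 1 to 3 alone it was -0.40 and was called. Either set leaves fewer arrays, which by itself makes calls fewer.

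Bag2 inhibits Chip, the ubiquitin ligase encoded by Stub1, and so holds clients back from degradation. Signals were 317, 358 and 428 in CRI-G1-RS, against 177, 240.1 and 244 in CRI-G1-RR. All CRI-G1-RS arrays lay above all CRI-G1-RR arrays. The mean was 364 ± 39.5 in CRI-G1-RS and 229 ± 26.1 in CRI-G1-RR, a ratio of 1.59 and a log2 fold change of 0.61 (SE 0.09, 95% interval 0.42 to 0.81). Bag2 was thus the largest rise among the Bag genes by fitted value, beside the fall of Bag3.

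Bag4, also named silencer of death domains, restrains signalling from tumor necrosis factor receptors. Signals were 323, 371 and 395 in CRI-G1-RS, against 290.2, 330.0 and 347 in CRI-G1-RR. Its mean was 367 ± 25.4 in CRI-G1-RS and 326 ± 21.4 in CRI-G1-RR, with a log2 fold change of 0.15 (SE 0.06, 95% interval 0.02 to 0.29) that was not called, and the lines overlapped.

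Bag5 carries several Bag domains and inhibits the ubiquitin ligase parkin. Signals were 616, 645 and 686 in CRI-G1-RS, against 508, 537 and 589 in CRI-G1-RR, with no overlap. The mean was 648 ± 22.7 in CRI-G1-RS and 542 ± 30.0 in CRI-G1-RR, and the log2 fold change was 0.24 (SE 0.05, 95% interval 0.13 to 0.36). Against CRI-G1-RR replicates 1 to 3 alone, which leaves fewer arrays, it was 0.19 and was not called.

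Bag6, also called Scythe or Bat3, escorts membrane proteins with a hydrophobic tail to their insertion machinery and sends those that fail to the proteasome. At its brighter probe set, signals were 641, 689 and 816 in CRI-G1-RS, against 505, 545 and 624 in CRI-G1-RR, with no overlap. The mean was 701 ± 61.8 in CRI-G1-RS and 552 ± 42.5 in CRI-G1-RR, and the log2 fold change was 0.32 (SE 0.07, 95% interval 0.16 to 0.48). Against CRI-G1-RR replicates 1 to 3 alone, which leaves fewer arrays, it was 0.25 and was not called. Its other probe set was dim and had 4.44, 13.7 and 26.5 in CRI-G1-RS, against 5.47, 10.5 and 20.5 in CRI-G1-RR. The log2 fold change of 0.09 (SE 0.18) was not called, so the probe sets of Bag6 differ in call.

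**Figure D4:**
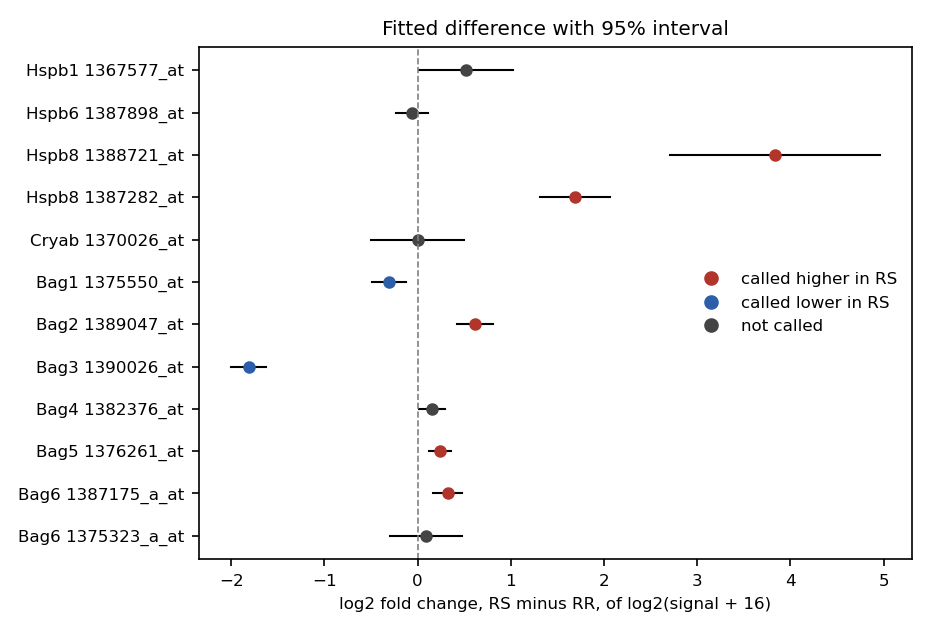
Fitted log2 fold change of each of the 12 probe sets, CRI-G1-RS minus CRI-G1-RR on the scale of log2(signal + 16) (x axis), with its 95% interval as a line. Red marks the 5 probe sets called higher in CRI-G1-RS, blue the 2 called lower and grey the 5 not called. Hspb8 reaches 3.83 and Bag3 -1.81, while all others lie between -0.31 and 1.69.

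The members lie on 8 chromosomes, and for each the 50 nearest genes whose mean signal reached 100 were used as local background, in the gene order of GRCr8. Around Hspb8 on chromosome 12 the median log2 fold change was -0.13, with 3 genes called higher and 19 lower, and no neighbour rose as much as Hspb8. The neighbours of Bag3 on chromosome 1 had a median of -0.32, with 2 called higher and 30 lower, and none fell as much as Bag3. Bag3 therefore stood in a region where most calls were lower in CRI-G1-RS, with its own value well beyond the interquartile range of -0.61 to -0.08. Bag1 on chromosome 5 went against its surroundings, which had a median of 0.28 with 29 called higher and 5 lower. Bag2 on chromosome 9 also did, with a median of -0.14, 7 called higher and 18 lower. The neighbours of Hspb1 had a median of 0.00, and 6 of them had a log2 fold change at least as large as its own 0.52. For Hspb6, Cryab, Bag4, Bag5 and Bag6 the neighbours had medians between -0.10 and 0.06, and for each of these at least 13 of 50 neighbours differed by as much in the same direction. Cryab itself had a log2 fold change of 0.00, so its count is of sign only. Hspb6 had -0.06, so its count says little.

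**Figure D5:**
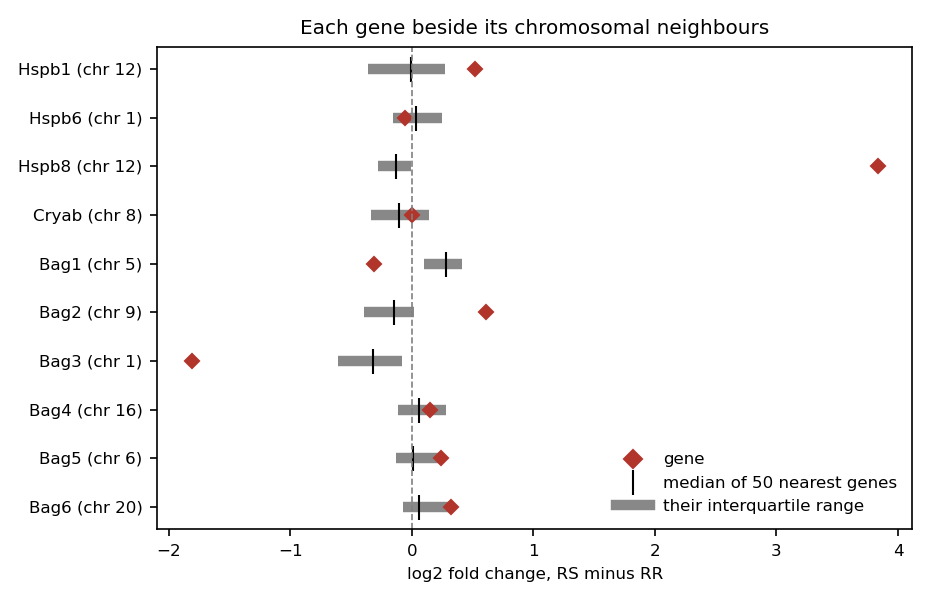
Log2 fold change (x axis, CRI-G1-RS minus CRI-G1-RR) of each gene (red diamond) beside the median (black tick) and interquartile range (grey bar) of its 50 nearest genes, with the chromosome in the row label. Hspb8 at 3.83 and Bag3 at -1.81 lie farthest from their neighbours, and Bag1 and Bag2 lie on the opposite side of 0 from the medians of theirs.

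Hsf1, Hsf2 and further textbook targets of Hsf1 were counted as the pathway around the family. Of 21 measured genes, 5 were called higher in CRI-G1-RS and none lower, against 39.2% of all genes called in either direction, and their median log2 fold change was 0.04 beside 0.02 over all genes. Chordc1, an Hsp90 cochaperone, had the largest change. It averaged 766 ± 92.3 in CRI-G1-RS and 383 ± 65.6 in CRI-G1-RR, a log2 fold change of 0.97 (limma, adjusted p = 2.04e-05). Dnaja1, an Hsp40 that delivers clients to Hsp70, averaged 2132 ± 43.5 in CRI-G1-RS and 1487 ± 42.9 in CRI-G1-RR (0.54, limma, adjusted p = 2.39e-06). Hspa9, the mitochondrial Hsp70, averaged 1671 ± 99.99 in CRI-G1-RS and 1222 ± 39.9 in CRI-G1-RR (0.45, limma, adjusted p = 2.86e-05). Hspa4l and Hsf2 were the other 2 called. Outside the naming rule, 3 genes were added after their values were seen, because they are the factor itself and its classic targets. Hsf1 averaged 236 ± 44.4 in CRI-G1-RS and 285 ± 24.6 in CRI-G1-RR (-0.28, limma, adjusted p = 0.0629), the inducible Hsp70 gene Hspa1a 105 ± 18.5 in CRI-G1-RS and 84.2 ± 25.8 in CRI-G1-RR (0.27, limma, adjusted p = 0.224), and Dnajb1 678 ± 21.6 in CRI-G1-RS and 623 ± 19.4 in CRI-G1-RR (0.11, limma, adjusted p = 0.106). None of these passed the threshold.

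The 7 other small heat shock genes of the array likewise gave no call by limma. Only Ift25 and Hspb7 averaged above 100, at 1670 ± 101.5 and 230 ± 23.7 in CRI-G1-RS, against 1645 ± 147.3 and 222 ± 27.4 in CRI-G1-RR. Of the 4 members and these 7, Hspb8 was the only gene called, beside 39.2% of all genes called in either direction. Most of the others were dim and the members were chosen on this contrast, so nothing is read from this count.

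Hsp70 exchange factors outside the Bag family share with most Bag proteins the task of releasing nucleotide from Hsp70. Of 8, 5 were called higher and none lower, against 21% of all genes called higher, with a median log2 fold change of 0.22 beside 0.02 over all genes. Only 3 were called with either set of 3 CRI-G1-RR arrays alone. Hspa4, Hspa4l and Hsph1 stand in the Hsf1 list too, so the call of Hspa4l is counted in both lists. Hyou1, the exchange factor of the endoplasmic reticulum, averaged 432 ± 79.7 in CRI-G1-RS and 163 ± 22.3 in CRI-G1-RR. Hspa4l, a cytosolic relative of Hsp110, averaged 354 ± 28.5 in CRI-G1-RS and 257 ± 19.6 in CRI-G1-RR (log2 fold change 0.43, limma, adjusted p = 4.17e-04). Hspbp1, an armadillo-type exchange factor of the cytosol, averaged 719 ± 62.7 in CRI-G1-RS and 547 ± 75.2 in CRI-G1-RR (0.38, limma, adjusted p = 0.00728). The mitochondrial factors Grpel2 and Grpel1 were the other 2 called.

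Among 11 genes that act with Bag1, Bag2, Bag3 or Bag5 in degrading clients, 2 were called higher and 4 lower, against 21% and 18.3% of all genes, with a median log2 fold change of 0.03. Hspa1a and Dnajb6, neither of them called, also stand in the Hsf1 list. Synpo2, which in muscle couples the Bag3 complex to autophagosome membranes, fell beside Bag3. It averaged 63.3 ± 4.13 in CRI-G1-RS and 150.2 ± 26.1 in CRI-G1-RR, a log2 fold change of -1.07 (limma, adjusted p = 5.62e-06). Wipi1, a phosphoinositide-binding autophagy protein, averaged 261 ± 19.0 in CRI-G1-RS and 443 ± 74.2 in CRI-G1-RR (-0.73, limma, adjusted p = 1.56e-04). Stub1, which encodes the ligase Chip, averaged 1160.0 ± 49.1 in CRI-G1-RS and 1511 ± 89.3 in CRI-G1-RR (-0.37, limma, adjusted p = 2.03e-04). The fourth gene called lower was Psmd4, a ubiquitin receptor of the proteasome. Higher in CRI-G1-RS were Ube2d2, a ubiquitin-conjugating enzyme used by Chip (2277 ± 80.3 in CRI-G1-RS and 1635 ± 68.5 in CRI-G1-RR, log2 fold change 0.50, limma, adjusted p = 5.21e-06), and Pink1, the kinase that marks damaged mitochondria. Pink1 averaged 97.7 ± 26.8 in CRI-G1-RS and 69.0 ± 9.73 in CRI-G1-RR (0.37, limma, adjusted p = 0.0492), and its arrays overlapped. Sqstm1, the autophagy receptor p62, also named after its values were seen, averaged 1628 ± 64.6 in CRI-G1-RS and 1595 ± 61.6 in CRI-G1-RR and was not called.

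In the Bag6 route for tail-anchored proteins, 3 of 10 genes were called higher and 1 lower, close to the 39.2% of all genes called in either direction, with a median log2 fold change of 0.15. Ubqln1, a ubiquitin-binding chaperone of membrane proteins, averaged 1629 ± 92.4 in CRI-G1-RS and 997 ± 94.8 in CRI-G1-RR (0.70, limma, adjusted p = 7.41e-06). Sgta, which passes clients to Bag6 or to Get3, averaged 887 ± 36.4 in CRI-G1-RS and 711 ± 39.5 in CRI-G1-RR (0.31, limma, adjusted p = 6.19e-04). Get3, the targeting ATPase, averaged 314 ± 17.1 in CRI-G1-RS and 264 ± 23.0 in CRI-G1-RR (0.23, limma, adjusted p = 0.0165). Get4, a direct subunit of the Bag6 complex, went the other way, at 872 ± 43.5 in CRI-G1-RS and 1196 ± 81.4 in CRI-G1-RR (-0.44, limma, adjusted p = 5.90e-05).

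Of 5 partners of Bag4 in death receptor signalling, 1 was called higher and 1 lower, close to the 39.2% of all genes called. Birc2, an inhibitor of apoptosis that ubiquitinates Ripk1, averaged 335 ± 24.5 in CRI-G1-RS and 190.0 ± 23.3 in CRI-G1-RR (log2 fold change 0.77, limma, adjusted p = 7.78e-06). Ripk1, the kinase recruited to the receptors, averaged 306 ± 10.8 in CRI-G1-RS and 434 ± 29.2 in CRI-G1-RR (-0.49, limma, adjusted p = 1.93e-05). The median of the 5 was -0.10, beside 0.02 over all genes.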

How the data were processed

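RNA from 6 CRI-G1-RS and 6 CRI-G1-RR passages was hybridized to 12 arrays. The deposited values are linear signal intensities of 31099 probe sets (GCOS 1.4 by the submitters' processing notes), whereas the methods of the study describe log2 values from robust multi-chip averaging. Here the signals underwent quantile normalization, log2(signal + 16) was taken, and limma 3.58.1 in R 4.3.3 was fitted with line as the only term. No filter on low signal was applied. Benjamini-Hochberg adjustment covered all probe sets, with a threshold of 0.05. The probe set with the highest mean signal stood for a gene. Members and gene lists were chosen with earlier results of these data known. All members were named, and from each list up to 3 called genes in each direction with the largest change, plus the 3 genes most like each of Hspb1, Hspb8, Cryab and Bag3. Nearby genes were ordered by, and motifs searched in, RefSeq tables of GRCr8. Symbols came from the platform annotation, by which 20832 probe sets have 1 gene symbol, 436 several and 9831 none.

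On simulated arrays, 6 against 6, the fit recovered 82 of 100 probe sets given a 1.5-fold change. It recovered 97 of 100 given a 2-fold change, with 12 false calls among the unchanged probe sets. Only probe sets with a mean signal of at least 100 were changed, so dim ones are not covered. The simulated noise was independent between arrays, with the same SD in both lines. Unequal spread, as at Hspb8, and steps shared by several arrays, as in CRI-G1-RR, are not covered either. Precision is limited by the number of arrays, which give no counts. P-values set the difference between the lines against the spread between passages within each line, and they do not cover other subclones. No 2 arrays held identical values. Alternatives to the normalization were median centring and the deposited scaling alone. Other alternatives were a pseudocount of 1, a minimum mean signal of 50, removal of cross-hybridising probe sets, a replicate block, array weights, an intensity trend, the probe set with the smallest p for each gene, the 20 nearest genes, CRI-G1-RR replicates 4 to 6 alone and each array left out. CRI-G1-RR replicates 1 to 3 alone were added after seeing the data. Scan dates and detection calls were not used.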

Additional observations from a re-analysis of the deposited data

Results flagged for a closer look

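In 2 of the 24 sets of 6 arrays tested, 1 per member probe set and line, a single array lay far from the other 5 on the normalized log2(signal + 16) scale, where chance gives about 1 in 20. At the dimmer Hspb8 probe set, CRI-G1-RS replicate 2 had a signal of 105, the lowest of its line, and its gap to the nearest array made up 0.68 of the range of the line on that log2 scale. The brighter Hspb8 probe set had 701 on the same array, the second highest value of its line. At Bag2, CRI-G1-RR replicate 6 had a signal of 177, the lowest of its line, while the other 5 arrays had signals between 233 and 244. Its gap was 0.875 of the range on the log2 scale. Without that array the log2 fold change of Bag2 was 0.55, beside 0.61 with all arrays.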

How the results depend on the processing

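Hspb8 (both probe sets), Bag2 and Bag3 kept their direction and call under every alternative run. The log2 fold change of Hspb8 ranged from 1.69 to 5.12, since its second probe set, the CRI-G1-RR arrays used and the pseudocount (4.94 with 1) all move it. Against CRI-G1-RR replicates 1 to 3 alone, 3 in place of 5 member probe sets were called higher, and against replicates 4 to 6 alone 1 in place of 2 were called lower. With either set, which leaves fewer arrays, 3 in place of 5 Hsp70 exchange factors were called. The degradation partners gave 4 calls against replicates 4 to 6 and 5 against replicates 1 to 3, in place of 6. An intensity trend gave 8 in place of 5 calls among Hsf1 and its targets. Array weights gave 1 in place of 0 among the other small heat shock genes, as did leaving out CRI-G1-RR replicate 5. The cause of these last 3 changes was not tested. Leaving out each array in turn gave 7 to 9 member calls, 5 to 7 of them higher and 2 to 2 lower, and 9162 to 10010 calls over all probe sets, of which 51.2% to 51.9% were higher. The lists then gave 4 to 7 calls (Hsf1 and its targets), 4 to 6 (exchange factors), 5 to 7 (degradation partners), 4 to 5 (Bag6 route), 2 to 3 (Bag4 partners) and 0 to 1 (other small heat shock genes). Hspb1 was called without CRI-G1-RS replicate 1 or 6, with 0.65 each, and Bag4 without CRI-G1-RS replicate 6, with 0.19. With the 20 nearest genes, the median around Bag3 was -0.44, around Hspb8 -0.05, around Hspb1 0.15 and around Cryab 0.10, where with 50 it was -0.10. Centring on the median shifted the median log2 fold change of all probe sets by -0.01.

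Passages were collected in pairs according to the labels, which do not tie the pairs to replicate numbers. Deviations of same-numbered arrays correlated at -0.04 to 0.21, with 2 of 6 over 0.1, and 2 of 6 CRI-G1-RS arrays correlated best with their own number, so the numbers were not taken as pairs. With the replicate number as a block, 8 member probe sets were called in place of 7, the added one being Hspb1 (0.52), and 9204 of all probe sets in place of 9860. Signals of Hspb1, Cryab and the dim Bag6 probe set were too low to show small differences.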
